A study of Mus musculus with 6 samples.

Results

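Intergenic intervals of histone H3 lysine 9 acetylation (H3K9ac) were the intervals that the authors' peak lists class as intergenic. Each of 6 libraries had its own list, and unique intervals of that class were merged over the libraries where they shared 1 bp or more. This gave 4147 intergenic intervals of 42851 intervals in all, and 2918 merged intergenic regions beside 23983 nuclear regions merged from all classes. A fold enrichment of 20 or more in any library, a threshold meant to part off likely repeat artefacts, was met by 47 regions, and 2871 regions stayed below it.

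Epithelial cells of the distal intestine were taken from C57BL/6 mice, and their chromatin was precipitated with 1 lot of a Millipore antibody against H3K9ac. Mice were E.coli-monoassociated (colonized with that bacterium alone), conventionally-housed with an ordinary microbiota, or germ-free, with 2 libraries in each of these 3 groups. Age and sex were not among the labels used here, and the labels do not say whether each replicate is another animal, so differences between replicates may be technical. The lists, their mm10 coordinates and each interval's fold are the authors' own, and a fold is relative to its own list, so it serves to describe and rank calls.

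H3K9ac is placed by acetyltransferases such as GCN5 and PCAF, is removed by histone deacetylases, and is known above all from active promoters. It also occurs at active enhancers, which can lie far from the gene they act on. Intergenic calls can therefore mark enhancers or promoters of transcripts that an annotation lacks, while repeats whose copies are collapsed in a genome assembly draw reads from many places at once and give very high enrichment.

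Some members overlapped the windows around start sites that RefSeq records while the authors' lists class them as intergenic. RefSeq sequences of GRCm38.p6, the assembly behind mm10, are shown for 4 of them because they show how different such starts were: 1 called in every library, 1 called in all conventional and germ-free libraries, 1 in both conventional and 1 germ-free library, and 1 in conventional libraries alone. Each window runs from 250 bases before to 50 bases after the start, 5′ to 3′ on the gene's own strand, and capitals mark CpG dinucleotides.
Prdm10 (chr9:31280299-31280598, + strand): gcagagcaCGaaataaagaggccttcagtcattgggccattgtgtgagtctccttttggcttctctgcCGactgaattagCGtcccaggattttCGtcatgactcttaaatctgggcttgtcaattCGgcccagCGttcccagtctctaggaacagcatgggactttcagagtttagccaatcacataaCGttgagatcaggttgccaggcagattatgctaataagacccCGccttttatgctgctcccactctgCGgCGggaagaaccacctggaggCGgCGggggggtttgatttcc
Rab7 (chr6:88044968-88045267, - strand): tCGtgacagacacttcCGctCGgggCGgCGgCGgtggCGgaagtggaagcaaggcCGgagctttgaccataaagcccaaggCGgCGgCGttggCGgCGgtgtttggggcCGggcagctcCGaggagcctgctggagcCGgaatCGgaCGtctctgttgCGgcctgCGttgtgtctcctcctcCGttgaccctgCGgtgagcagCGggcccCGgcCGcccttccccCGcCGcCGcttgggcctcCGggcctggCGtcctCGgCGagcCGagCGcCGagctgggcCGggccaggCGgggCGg
D230017M19Rik (chr1:72243743-72244042, + strand): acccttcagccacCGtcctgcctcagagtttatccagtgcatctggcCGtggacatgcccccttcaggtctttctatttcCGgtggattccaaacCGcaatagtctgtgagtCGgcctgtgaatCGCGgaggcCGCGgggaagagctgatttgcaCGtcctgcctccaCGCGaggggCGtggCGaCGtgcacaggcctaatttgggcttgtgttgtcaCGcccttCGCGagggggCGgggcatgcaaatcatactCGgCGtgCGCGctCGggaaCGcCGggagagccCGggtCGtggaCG
Gm31763 (chr10:67004825-67005124, + strand): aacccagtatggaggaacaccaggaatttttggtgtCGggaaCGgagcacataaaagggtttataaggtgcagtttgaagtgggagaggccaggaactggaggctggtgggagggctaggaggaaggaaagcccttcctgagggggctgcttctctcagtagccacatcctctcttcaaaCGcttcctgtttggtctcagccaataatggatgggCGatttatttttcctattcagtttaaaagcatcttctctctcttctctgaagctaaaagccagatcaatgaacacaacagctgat

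The windows held 12, 38, 29 and 4 CpG dinucleotides in that order. Of all 32851 RefSeq windows, 43.5% held 10 or more, with a median of 7. Regions found in 2 or more libraries overlapped 35 windows, of which 54.3% held 10 or more (median 12), and regions of 1 library overlapped 60, of which 43.3% did (median 7.5). These counts are descriptions of the letters, with no test.

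MicroRNA genes were the authors' nearest gene to several of the most recurrent regions, and the mature sequences of a pair of them are shown with the seed (bases 2 to 8) in capitals. They are the neighbours of a run of very high enrichment and of a group of broad regions, described further on.
mmu-miR-101c (chr9:3038680-3038698, - strand): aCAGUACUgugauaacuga
mmu-let-7c-5p (chr15:85706616-85706637, + strand): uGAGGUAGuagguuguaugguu

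The lists differed widely in length, and this bears on every count. They held 1988 and 870 intervals in the E. coli libraries (replicates 1 and 2), 3117 and 15352 in the conventional libraries, and 4430 and 17094 in the germ-free libraries, so conventional replicate 2 and germ-free replicate 2 stood apart. The labels state 20 M reads of 50 bp per library, and the total of mapped reads is unknown. In the 5 lists that give it, the fold of every nuclear line equalled, within 0.1%, the reads over the summit (pileup) plus 1 over a single genome-wide background plus 1, so no local background entered it. The background was 0.690 and 0.403 reads in E. coli libraries, 0.413 and 0.381 in conventional libraries and 0.733 in germ-free replicate 1. A typical intergenic call rested on few reads: the median pileup was 8 and 11 reads in E. coli libraries, 8 and 6 in conventional libraries and 9 in germ-free replicate 1, and the lowest were 6, 5, 5, 4 and 6 reads in the same libraries. As a check of the labelled cells, the epithelial genes Cdx2, Epcam and Vil1 had a promoter interval in all 6 lists, and Krt8 and Foxa1 in 5. By whole lists, 30 of 35 intestinal transcription factors, 36 of 37 junction genes, 30 of 40 enterocyte genes and 8 of 16 goblet cell genes had one in at least 1 library, and 9, 9, 4 and 0 of them in all 6. Of 36 markers of stromal, endothelial, muscle and nerve cells 0 had one in any library. The same held for all but 1 of 37 lymphocyte and myeloid markers. However, 0 of 13 enteroendocrine, 0 of 8 Paneth and 0 of 8 tuft cell markers had one either, and these cells are epithelial. Absence from these lists therefore does not show that a cell type was absent.

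Intergenic intervals were a larger part of the E. coli lists than of the others in these libraries, in a design too small for the difference to pass a test. They numbered 373 and 134 in the E. coli libraries, 208 and 1233 in the conventional libraries and 550 and 1649 in the germ-free libraries. As a share this was 18.8% (95% Wilson interval 17.1 to 20.5) and 15.4% (13.2 to 18.0) of the E. coli lists, 6.67% (5.85 to 7.60) and 8.03% (7.61 to 8.47) of the conventional lists, and 12.4% (11.5 to 13.4) and 9.65% (9.21 to 10.1) of the germ-free lists. The intervals cover counting error only. Both E. coli lists lay above all 4 others, and both conventional lists lay below all 4 others. Group means were 17.1% ± 2.38 in E. coli, 7.35% ± 0.961 in conventional and 11.03% ± 1.96 in germ-free libraries (SD, n = 2 each).

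Group membership took up 90.3% of the sum of squares of this share, with an exact permutation p = 0.0667, the smallest that 15 splits of 6 libraries allow. The difference was 6.05 percentage points for E. coli minus germ-free, -3.68 for conventional minus germ-free and -9.73 for conventional minus E. coli, each with an exact permutation p = 0.333 (two-sided), the smallest for 2 libraries against 2. No difference between groups could therefore pass 0.05. With the 47 high-fold regions left out, the shares were 16.5% and 9.91% in E. coli, 5.06% and 7.74% in conventional, and 11.4% and 9.37% in germ-free libraries. E. coli replicate 2 then lay below germ-free replicate 1, the E. coli and germ-free groups overlapped, and the groups held 63.0% (exact permutation p = 0.267).

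**Figure D1:**
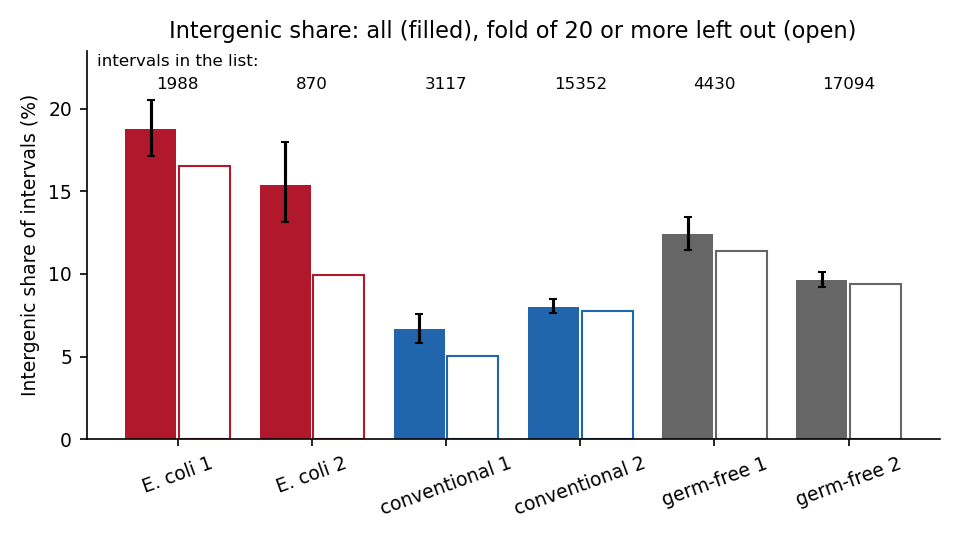
Intergenic share of the intervals of each list, in percent (vertical axis), by library (horizontal axis). Filled bars count all intergenic intervals, with 95% Wilson intervals as error bars, open bars leave out regions of fold 20 or more, and the number above each pair is the length of the list. The filled bars are highest in the 2 E. coli libraries (18.8% and 15.4%), and the open bar of E. coli replicate 2 (9.91%) lies below that of germ-free replicate 1 (11.4%).

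The 47 high-fold regions were called nearly everywhere: 45 of them in all 6 libraries, and the other 2 in all 4 E. coli and germ-free libraries and in neither conventional one. They made up 14.2% and 39.6% of the intergenic intervals of the E. coli libraries, 25.5% and 3.89% in the conventional libraries and 9.27% and 3.15% in the germ-free libraries. Their median fold was 33.1 and 22.1 in E. coli, 24.8 and 28.2 in conventional, and 32.3 and 25.3 in germ-free libraries. For the strongest regions E. coli replicate 1 and germ-free replicate 1 had the highest folds. These folds chose the regions and are given as a description, relative to each list's own background.

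The strongest high-fold region was chr2:98662161-98663051, where the authors' nearest gene, B230118H07Rik, ended 2898 kb away. Its fold was 253 and 148 in E. coli, 146 and 146 in conventional, and 241 and 131 in germ-free libraries. Close behind was chr9:35305141-35305665, nearest to Cdon, which encodes a co-receptor of hedgehog signalling, with 253 and 148 in E. coli, 145 and 151 in conventional, and 240 and 127 in germ-free libraries. In both regions no group stood apart from the others. Of the 10 regions of highest fold, 3 lay at chr2:98662161-98667406, 1 at Cdon, 1 at chr14:19415637-19419063 (nearest Gm5458, 160-fold) and 5 at chr9:2999948-3038339.

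That stretch of chromosome 9, next to the gene of miR-101c, held 37 intergenic regions, of which 19 were high-fold and 18 below 20. The nearest of them ended 341 bp from the miRNA's mature sequence printed above. Its strongest region, chr9:3023189-3023666, had a fold of 146 and 82.0 in E. coli, 84.9 and 84.7 in conventional, and 133 and 70.3 in germ-free libraries. By chromosome, 20 of the 47 high-fold regions lay on chromosome 9, 5 on chromosome 2, and 3 or fewer on any other. Of the 47, 34 lay past the end of the nearest gene and 13 before its start. Whether they are repeats was not tested, since no genome sequence was used here.

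The 2 high-fold regions missing from the conventional lists were neighbours, chr1:24612627-24612876 and chr1:24612980-24613249, nearest to Lmbrd1, which encodes the lysosomal cobalamin exporter. The first had a fold of 21.3 and 17.1 in E. coli libraries and of 30.6 and 27.2 in germ-free libraries. The second had 32.6 and 14.3 in E. coli libraries and 31.7 and 34.8 in germ-free libraries. Neither was called in a conventional library, whose lowest listed folds were 4.25 and 3.62. The mouse genome is known to carry a nuclear copy of mitochondrial DNA in this place, so the highest fold on the mitochondrial chromosome is set beside them: 55.0 and 41.3 in E. coli, 39.6 and 34.0 in conventional, and 65.2 and 85.5 in germ-free libraries. It was lowest in the conventional libraries, and its part in the missing calls was not tested.

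At the threshold itself, the 3 regions just inside had a highest fold of 20.8, 20.9 and 21.5, and the 3 just outside had 19.5, 19.5 and 19.0. The region of 20.9, chr5:137165209-137166038, overlapped 42 bp of the RefSeq window of Muc3, the gene of a membrane mucin. It ended 8 bp short of the start itself, although the authors' nearest gene was Ache. Over all classes 99 regions reached a fold of 20, and 93 of them were called in all 6 libraries.

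**Figure D2:**
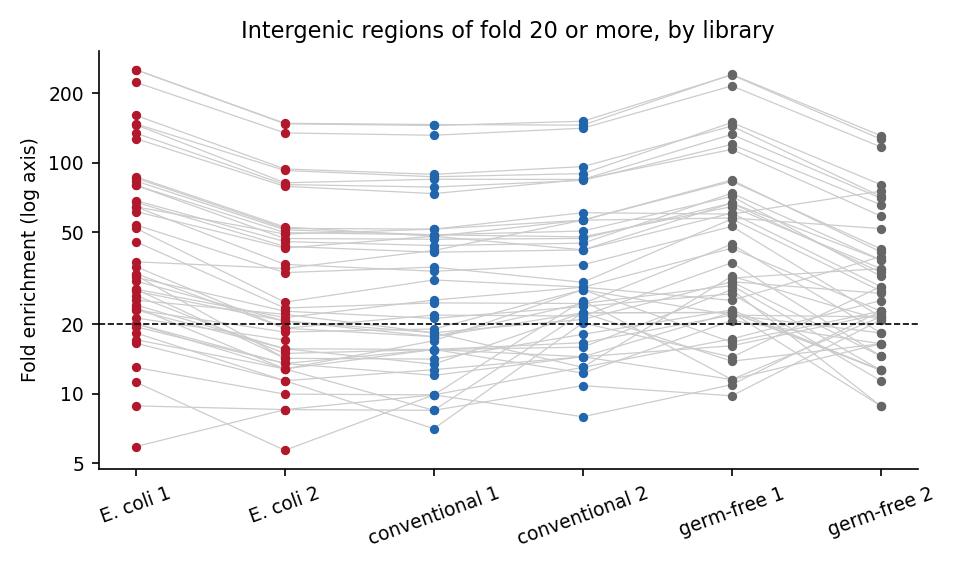
Fold enrichment (vertical log axis) of the 47 intergenic regions of fold 20 or more in each library (horizontal axis). Each point is 1 region in 1 library, grey lines join a region's values, and the dashed line marks a fold of 20. The values span 5.70 to 253, and the lines run largely in parallel, with the strongest regions highest in E. coli replicate 1 and germ-free replicate 1.

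Below a fold of 20, most regions were seen once. Of all 2918 regions, 2367 were called in 1 library, 336 in 2, 75 in 3, 37 in 4, 31 in 5 and 72 in 6, and 45 of the last 72 were high-fold. The share called in 2 or more libraries was 551 of 2918, against 34.4% of regions of all classes. All 6 libraries called 72 intergenic regions (2.47%), against 1.57% of all classes, and 27 of them were below 20. Of the regions called once, 193 and 10 came from the E. coli libraries, 21 and 709 from the conventional libraries and 306 and 1128 from the germ-free libraries. Of the 336 called in exactly 2 libraries, 252 (75%) were shared by conventional replicate 2 and germ-free replicate 2, which belong to different groups and have the longest lists. With both of those libraries left out, 859 regions remained, of which 173 were called in 2 or more. The 551 became 271 without conventional replicate 2 alone and 266 without germ-free replicate 2 alone, and without the second of these 1837 regions remained.

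**Figure D3:**
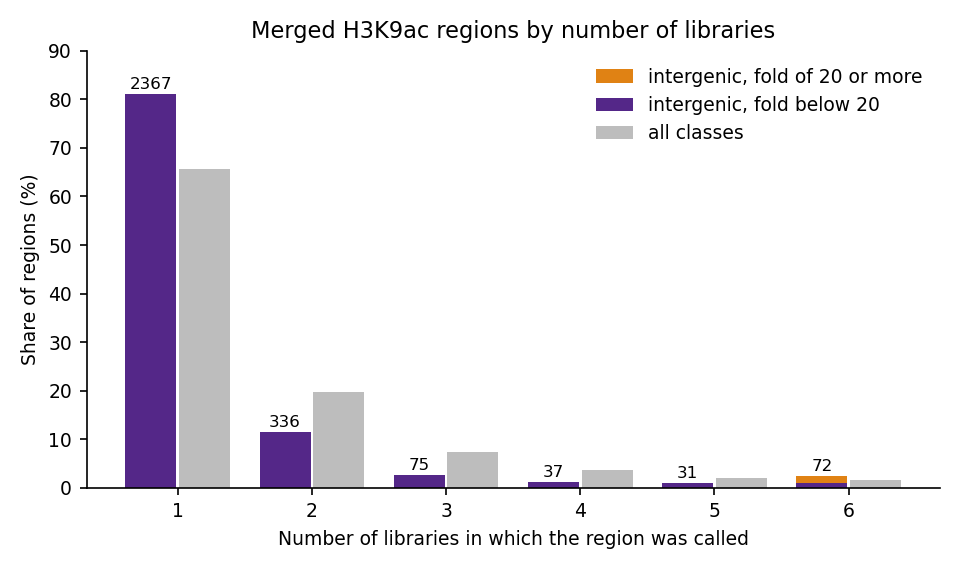
Share of merged regions in percent (vertical axis) by the number of libraries that called them (horizontal axis), for intergenic regions (coloured, with their number above the bar) and for all classes (grey). Orange marks regions of fold 20 or more and purple the rest. Intergenic regions are concentrated at 1 library (2367 regions, 81.1%, against 65.6% of all classes), and most of the 72 called in all 6 libraries are high-fold.

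Regions that recurred were longer. Below 20, the median length of a merged region was 165 bp for regions called once, 390.5 bp for 2 libraries, 584 bp for 3, 461 bp for 4, 406 bp for 5 and 410 bp for 6. Merging itself lengthens a region called more often, so the median length of single intervals is set beside it: 165, 238, 228.5, 222, 218.5 and 228.5 bp in the same order. Regions of 1 kb or more were 0.169% of those called once, 5.06% for 2 libraries, 14.7% for 3, 17.1% for 4, 32.3% for 5 (10 of 31) and 18.5% for 6 (5 of 27).

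Within each library, intergenic intervals were compared with all other intervals. Their median length was 164 bp against 198 bp in E. coli replicate 1, 231 against 217.5 in E. coli replicate 2, 221 against 227 and 205 against 273 in the conventional libraries, and 146 against 199 and 222 against 266 in the germ-free libraries. They were shorter in 5 of 6 libraries, with a mean difference of -31.9 bp ± 30.4 (SD, n = 6; exact sign-flip permutation p = 0.0938, adjusted p = 0.125 over 4 such tests, two-sided). Their median fold was 5.33 against 5.33 and 8.55 against 5.70 in the E. coli libraries, 6.37 against 5.66 and 5.07 against 5.07 in the conventional libraries, and 5.77 against 5.77 and 5.07 against 5.70 in the germ-free libraries. The mean difference of 0.49 did not pass (exact permutation p = 0.5): 2 libraries were higher, 1 lower and 3 equal.

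The share of intervals also called in another library was lower for intergenic intervals than for the other classes in these 6 libraries, short of the threshold after adjustment. The shares were 48.3% against 86.9% and 92.5% against 97.7% in the E. coli libraries, 90.9% against 97.4% and 42.7% against 61.2% in the conventional libraries, and 44.4% against 84.7% and 31.7% against 54.7% in the germ-free libraries. The mean difference was -22.0 percentage points ± 15.2 (SD, n = 6), lower in 6 of 6 libraries, with an exact permutation p = 0.03125, the smallest of 64 sign flips, and an adjusted p = 0.0625, which does not pass 0.05. Each list is compared with the others, so the 6 differences are not fully independent, as the permutation takes them to be. Holding every list to its 870 most significant intervals turned the direction, to 7.23 percentage points higher in intergenic intervals (exact permutation p = 0.0938, adjusted p = 0.125). At that length 47 of the 270 intergenic regions were high-fold.

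A promoter interval at the nearest gene had a higher share among intergenic intervals than among genes at large in these 6 libraries, also short of the threshold after adjustment. In the E. coli libraries 6.17% and 2.99% of intergenic intervals had a nearest gene with a promoter interval in the same list, against 4.21% and 1.87% of all protein-coding RefSeq genes. The shares were 10.1% and 41.9% in the conventional libraries, against 9.08% and 32.8% of genes, and 13.5% and 44.6% in the germ-free libraries, against 10.995% and 29.6%. The mean difference was 5.10 percentage points ± 5.69 (SD, n = 6), higher in 6 of 6 libraries, with an exact permutation p = 0.03125 and an adjusted p = 0.0625. The first share is over intervals and the second over genes, so a gene with many intervals counts many times in the first. The first also counts nearest genes of any kind, and the second protein-coding genes alone.

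**Figure D4:**
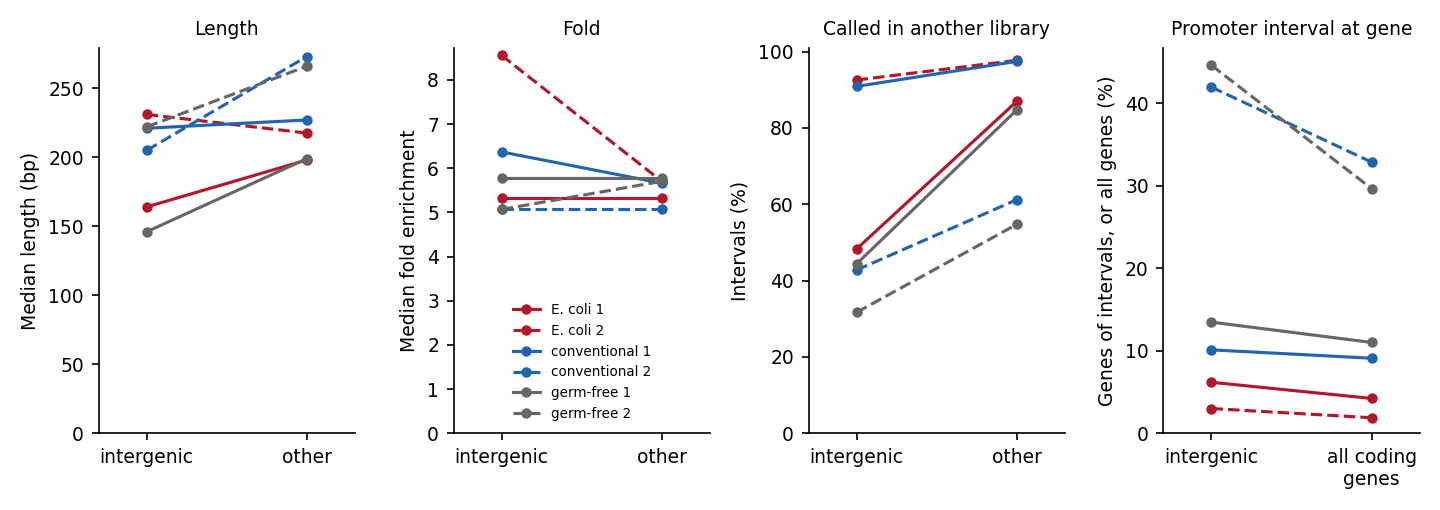
Intergenic intervals (left of each panel) against the other intervals of the same list, or against all protein-coding genes in the last panel (right). The panels give the median length in bp, the median fold, the percent also called in another library and the percent with a promoter interval at the gene. Each line is 1 library, solid for replicate 1 and dashed for replicate 2. Sharing is lower in intergenic intervals in all 6 libraries, by 22.0 percentage points on average.

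The intergenic class followed from the authors' gene models. Their upstream class reached 20999 bp before a start, so that an intergenic region lay more than 21 kb before the start of its gene or anywhere past its end, and the nearest was 75 bp past an end. Of the 2871 regions below 20, 1457 lay before the start and 1414 past the end. Their median distance to the authors' nearest gene was 59.1 kb (quartiles 26.9 and 161 kb). It was 47.4 kb for regions of 2 or more libraries and 63.5 kb for regions called once.

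RefSeq, which holds more genes, placed many members inside one. Of the 2871 regions, 940 (32.7%) overlapped a RefSeq gene, among them 581 a long non-coding RNA gene and 336 a protein-coding gene. The share was 40.1% of regions of 2 or more libraries and 31.2% of those called once. Within 1 kb of a RefSeq start lay 18.1% of the first and 8.70% of the second, leaving out chromosome 18, whose starts were not used here. No test was made of these shares. By chromosome, intergenic regions were 50% of the regions on Y (14 of 28) and 4.39% on X (10 of 228), and between 7.26% and 16.3% on each autosome.

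Of the 27 regions below 20 that all 6 libraries called, the 15 of highest mean rank within their lists included 6 in the run beside Mir101c. The strongest of these, chr9:3026210-3026445, had a fold of 16.0 and 14.3 in E. coli, 16.3 and 13.04 in conventional, and 15.6 and 12.04 in germ-free libraries. Among the others were chr17:13654599-13655265, nearest to Tcte2, chr2:181917358-181917820, nearest to Gm14496, and chr13:74528633-74529785. The authors' nearest gene to the last was Erap1, an aminopeptidase that trims peptides for antigen presentation. It was distant: the region lay 110537 bp before its start, inside the RefSeq gene Gm20590, and 34672 bp from the nearest RefSeq start, that of Zfp825. At the Erap1 neighbour the fold was 12.4 and 8.55 in E. coli, 7.78 and 10.1 in conventional, and 12.7 and 10.1 in germ-free libraries, and the 3 groups overlapped. The remaining 6 were nearest to Dpy19l2, Gm6194, 2010315B03Rik, Fam171a1, Vmn2r87 and B020014A21Rik, and all were shorter than 1 kb.

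Some broader regions called in all 6 libraries ranked lower and are named after their values were seen. One, chr9:31279960-31281856, covered the starts of Prdm10, a zinc finger gene of the PRDM family, and of Gm10910, and the whole Prdm10 window printed above. Its fold was 5.92 and 6.41 in E. coli, 9.20 and 13.8 in conventional, and 5.19 and 12.7 in germ-free libraries. Another, chr11:115877409-115879124, lay inside the RefSeq gene Myo15b and 21966 bp before the start of Smim5. It had 4.73 and 4.28 in E. coli, 9.20 and 14.5 in conventional, and 5.77 and 11.4 in germ-free libraries. At both, conventional replicate 2 and germ-free replicate 2 were highest, and the E. coli values were below both conventional ones, though each fold is relative to its own list.

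Ache, which encodes acetylcholinesterase, was the authors' nearest gene to 22 regions below 20 at chr5:137149629-137265924, of which 8 overlapped the RefSeq gene of the membrane mucin Muc3. The one called in all 6 libraries, chr5:137162552-137164651, had a fold of 4.73 and 6.41 in E. coli, 7.78 and 10.9 in conventional, and 6.35 and 19.0 in germ-free libraries. The 22 regions were called 1 and 1 times in E. coli, 1 and 9 times in conventional, and 1 and 19 times in germ-free libraries, so nearly all came from the libraries with the longest lists.

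Before the start of Mirlet7c-2, which encodes a let-7 microRNA known to restrain growth-promoting genes, 12 regions lay at chr15:85606040-85684588. They too are named after their values were seen. The one called in all 6 libraries, chr15:85669853-85670831, had a fold of 5.92 and 4.99 in E. coli, 7.08 and 9.41 in conventional, and 8.66 and 10.1 in germ-free libraries. The E. coli values were lowest, but a fold is relative to its own list. A read added 0.592 to the fold in E. coli replicate 1 and 0.708 in conventional replicate 1. Their folds of 5.92 and 7.08 thus stood for the same pileup, and the order of folds need not be that of the reads. The adjoining chr15:85671002-85674154, of 3153 bp, was called in all libraries but E. coli replicate 2, with folds of 5.92 in E. coli replicate 1, 6.37 and 10.9 in conventional, and 5.77 and 9.50 in germ-free libraries. Its distance was 32449 bp to the Mirlet7c-2 hairpin and 33165 bp to that of Mirlet7b, both in RefSeq.

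**Figure D5:**
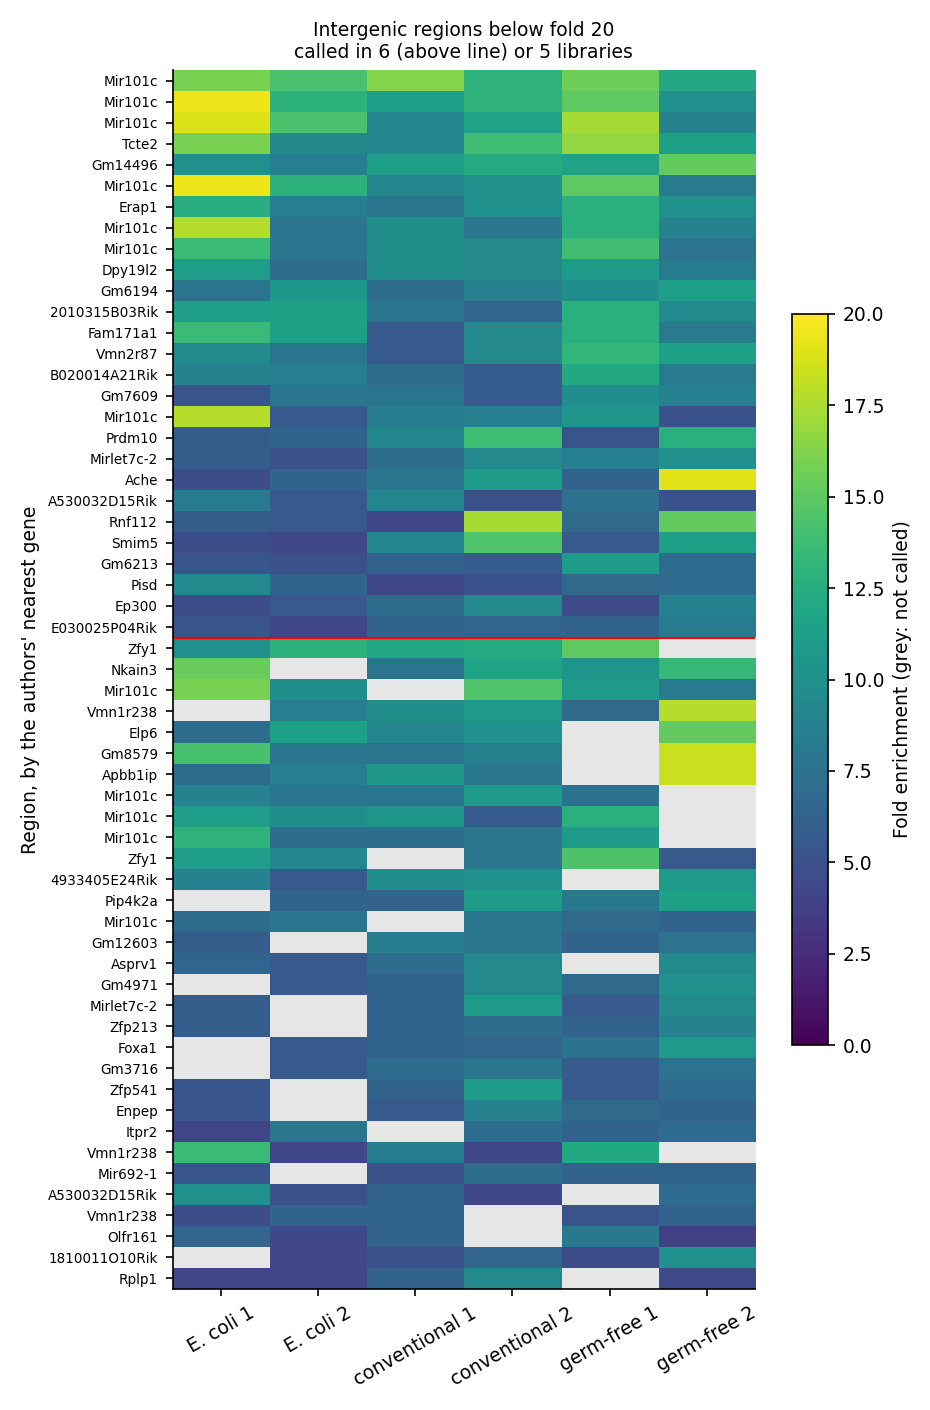
Fold enrichment (colour, grey where not called) of the intergenic regions below fold 20 that 6 libraries (27 regions, above the red line) or 5 libraries (31 regions, below it) called. Columns are libraries, and lines are regions, named by the authors' nearest gene. Several of the regions nearest to Mir101c reach 17.8 or more in E. coli replicate 1, whereas Prdm10, Ache, Rnf112 and Smim5 are highest in conventional replicate 2 or germ-free replicate 2.

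Presence by group was read as a call in both libraries of a group and in neither of another, without a test. No intergenic region was called in both E. coli and neither germ-free library, of 99 called in both E. coli libraries. At 3 counts the share would be 3.03%, so a count of 0 does not exclude a share smaller than that. It is a rough guide only, since regions of the same libraries are not replicates. Over all classes 3 regions had the pattern, or 0.0125% of all regions and 0.645% of the 465 called in both E. coli libraries. The intergenic count of 0 became 11 and 202 without E. coli replicate 1 and 2, and 10 and 9 without germ-free replicate 1 and 2. In the other direction 67 regions were found by both germ-free libraries but neither of E. coli, which is 2.30% of the 2918, against 6.74% of regions of all classes. Of the 175 called in both germ-free libraries they were 38.3%, against 61.9% over all classes. The 67 became 1476 without germ-free replicate 1 and 398 without germ-free replicate 2, when 1 library stood for the group. With every list held to its 870 most significant intervals the balance turned: 6 regions had the E. coli pattern and 2 the germ-free one.

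The strongest of the 67 by rank was chr6:31125348-31126820, inside the long non-coding RNA gene Lncpint, with folds of 9.81 and 10.1 in germ-free libraries and 6.37 and 9.41 in conventional libraries. Gm20257, Gm4971, Rpn1 and Tcte2 were nearest to the next 4. The Rpn1 neighbour, chr6:88043906-88045305, held the start of Rab7, a small GTPase of late endosomes, whose window with 38 CpG dinucleotides is printed above. It was called in all 4 conventional and germ-free libraries, at 6.37 and 10.1 in conventional and 6.35 and 13.3 in germ-free libraries, and in neither E. coli library.

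Conventional libraries called 45 regions that both E. coli libraries lacked, or 1.54% of the 2918, against 5.82% of regions of all classes. They were 30% of the 150 called in both conventional libraries, against 59.0% over all classes. Of the 45, 14 were called in both germ-free libraries, 24 in 1 and 7 in neither. They became 1055 without conventional replicate 1 and 79 without conventional replicate 2. Among the 5 highest by rank were the neighbour of Pecr, an enzyme of fatty acid elongation, that of Zeb2, a repressor of epithelial genes, and that of Lcor, a nuclear receptor corepressor. The Pecr neighbour, chr1:72243813-72244547, held the start of D230017M19Rik printed above and had folds of 7.08 and 7.24 in conventional libraries and 5.70 in germ-free replicate 2. The Zeb2 neighbour, chr2:44926041-44926886, lay inside RefSeq Gtdc1, with 7.08 and 7.24 in conventional and 5.77 and 7.60 in germ-free libraries. The Lcor neighbour, chr19:41483200-41483820, lay 518 bp from a RefSeq start of Lcor itself. With equal list lengths 0 regions had the pattern, and 15 had its reverse.

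Against germ-free libraries, 7 regions were called in both conventional and neither germ-free library, or 0.24% of the 2918, against 0.6% of regions of all classes. They were 4.67% of the 150 called in both conventional libraries, against 6.08% over all classes. None of the 7 was called in an E. coli library. They became 728 without conventional replicate 1, 33 without conventional replicate 2, 18 without germ-free replicate 1 and 39 without germ-free replicate 2, and 0 with equal list lengths. The second of them by rank, chr10:126927788-126928160, was nearest to Ctdsp2, a phosphatase gene, with folds of 5.66 and 5.79. At chr10:67004507-67004897, 4292 bp past the end of Reep3, a gene of the endoplasmic reticulum, the folds were 4.25 and 7.24, and the region reached 73 bp into the window of Gm31763 printed above, ending 178 bp before the start itself. At chrY:847344-847782, nearest to the histone demethylase gene Kdm5d, they were 5.66 and 5.07. Other regions nearest to these genes did have germ-free calls in replicates 1 and 2: 1 and 3 at Ctdsp2, 0 and 1 at Reep3, and 0 and 2 at Kdm5d. Those of Kdm5d lay close by, within chrY:846478-848609, so the pattern holds for the single regions and not for their surroundings.

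The reverse pattern, both germ-free and neither conventional, held for 26 regions, 0.891% of the 2918, against 0.763% of regions of all classes. They were 14.9% of the 175 called in both germ-free libraries, against 7.001% over all classes. They became 1167 and 358 without germ-free replicate 1 and 2, 68 without conventional replicate 2, and 6 with equal list lengths. Apart from the Lmbrd1 neighbours, the strongest were near Speer4d, A530032D15Rik and Alkbh8. Both E. coli and neither conventional library called 7 regions, or 0.24% of the 2918, against 0.0792% of regions of all classes. They were 7.07% of the 99 called in both E. coli libraries, against 4.09% over all classes. These became 22 and 227 without E. coli replicate 1 and 2, and 14 without conventional replicate 2. Besides the Lmbrd1 pair, 3 of them were nearest to Speer4d and 2 to Gm17019.

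Speer4d, of a family of near-identical spermatogenesis-associated genes, had the most regions below 20. The 29 lay at chr5:15055368-15595545 and were called 20 and 6 times in E. coli, 0 and 0 times in conventional, and 16 and 4 times in germ-free libraries. The conventional libraries called none, although conventional replicate 2 has the second longest list, and all 4 other libraries called some. The strongest, chr5:15482762-15483128, had a fold of 8.29 and 7.84 in E. coli, and 9.81 and 10.8 in germ-free libraries. Next to it, 9 regions nearest to Gm17019 at chr5:14978964-15022095 were called 5 and 3 times in E. coli, 0 and 0 times in conventional, and 6 and 2 times in germ-free libraries. This was noticed after the values were seen and was not tested. The authors' treatment of reads that match several places is not given in the sources used here, so copies of such a family cannot be told apart.

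Other genes with many neighbouring regions fell into 2 kinds by library. Olfr161, an olfactory receptor gene, had 23 regions, called 8 and 5 times in E. coli, 3 and 2 times in conventional, and 10 and 9 times in germ-free libraries. The gene was far off: chr16:3244189-3245065, called in 5 libraries, lay 348048 bp before its start. Sp110, an interferon-induced nuclear body gene, had 22, called 9 and 1 times in E. coli, 4 and 4 times in conventional, and 11 and 5 times in germ-free libraries, and 11 of them lay in the RefSeq gene Gm7592. Here too the named gene was distant: chr1:85325251-85325707, called in 4 libraries, lay 251257 bp past its end. In contrast, the neighbours of Tomm20, a subunit of the mitochondrial import receptor, were called 0 and 0 times in E. coli, 1 and 9 times in conventional, and 1 and 17 times in germ-free libraries, and 17 of the 23 lay in the long non-coding RNA gene Gm31718. Those of Susd1 (17 regions) were called 0 and 0 times in E. coli, 1 and 9 times in conventional, and 1 and 12 times in germ-free libraries. Zfp706 had 16, called 0 and 0 times in E. coli, 0 and 8 times in conventional, and 0 and 9 times in germ-free libraries. In the second kind, calls came almost wholly from the longest lists.

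The nearest genes numbered 1273, of which 1265 matched the RefSeq table, and 720 had a single region. Of 21900 protein-coding genes, 4.78% were nearest to a region below 20 and 1.21% to one called in 2 or more libraries. Among 35 intestinal transcription factors 11 were nearest to a region (31.4%) and 6 to one of 2 or more libraries (17.1%). The gaps between genes differ in size and were not taken into account, so these shares are descriptions.

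Foxa1, a pioneer factor that opens chromatin in gut epithelium, had the broadest of these. Its region chr12:57536207-57540467, of 4261 bp, lay 4280 bp past the gene's end and was called in every library but E. coli replicate 1. The fold was 5.70 in E. coli replicate 2, 6.37 and 6.52 in conventional, and 7.50 and 10.8 in germ-free libraries. Cdx2, the homeobox factor of intestinal identity, had a region 221 bp past its end, chr5:147300137-147300801, at 7.08 in conventional replicate 1 and 5.19 and 5.70 in germ-free libraries, and no E. coli call. Klf3, a zinc finger repressor, had 10 regions, called 0 and 0 times in E. coli, 0 and 5 times in conventional and 0 and 7 times in germ-free libraries. Maf, which acts in enterocyte metabolism, had 5, called in conventional replicate 2 (4 times) and germ-free replicate 2 (2 times) alone. Grhl2 and Prdm1, the other members of the 6, likewise had no E. coli call.

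Of 37 junction and barrier genes, 6 were nearest to a region (16.2%) and 3 to one of 2 or more libraries (8.11%). These counts use the authors' nearest gene. They leave out Tjp1 of this list, whose RefSeq gene held 6 regions nearest to Tarsl2. Epcam, the epithelial adhesion molecule, had 13 regions at chr17:87483398-87613530, called 0 and 0 times in E. coli, 0 and 8 times in conventional and 0 and 11 times in germ-free libraries. The strongest, chr17:87603742-87604666, had a fold of 9.41 in conventional replicate 2 and 7.60 in germ-free replicate 2, and 8 of the 13 lay in the long non-coding RNA gene Gm46609. Krt8, a keratin of simple epithelia, had 6, of which chr15:101976388-101977466 was called in both conventional libraries (6.37 and 7.97) and in germ-free replicate 2 (5.70). By RefSeq all 6 lay in another keratin gene, Krt78, and the named region lay 19245 bp past the end of Krt8. Cgn, the tight junction protein cingulin, had 1, in conventional replicate 2 and germ-free replicate 2.

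Members of the other lists were fewer. Of 33 histone acetylation genes 3 were nearest to a region (9.09%), and Ep300, the acetyltransferase p300, had the 1 called in all 6 libraries, chr15:81522273-81523036, 63198 bp before its start. Its fold was 4.73 and 5.70 in E. coli, 7.08 and 9.41 in conventional, and 4.62 and 8.87 in germ-free libraries, and the groups of E. coli and germ-free libraries overlapped. Mucosal defence and interferon genes had 5 of 43 (11.6%), with Nos2, the inducible nitric oxide synthase, in conventional replicate 2 and germ-free replicate 2. Enterocyte genes had 3 of 40 (7.5%), with Apob, the chylomicron protein, at chr12:7918309-7918898 in the same pair of libraries. Stem cell and Wnt genes had 2 of 20 (10%), with Smoc2, a matrix protein of crypt base cells, and nuclear receptors and clock genes 2 of 20 and 2 of 18. No goblet cell gene of 16 was the authors' nearest gene to a region. By RefSeq, however, 8 regions below 20 nearest to Ache overlapped Muc3, a member of that list.

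Markers of other cell types were among the neighbours at shares on either side of the 4.78% of all protein-coding genes, in lists too short to read more from. Of 37 lymphocyte and myeloid genes 1 was nearest to a region (2.70%), Kit, in 1 library. Of 36 genes of stroma, endothelium, muscle and nerve there were 2 (5.56%), and Cdh5, the endothelial cadherin, had 1 region in conventional replicate 2 and germ-free replicate 1. No enteroendocrine gene of 13 and no tuft cell gene of 8 was a neighbour, and 1 Paneth cell gene of 8 (12.5%), Habp2, was, in E. coli replicate 1.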

How the data were processed

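H3K9ac chromatin immunoprecipitation libraries of 6 samples, grouped by the sample type in the labels, were analysed from the authors' peak lists. Per the labels' protocols they were ThruPLEX libraries read single-end on an Illumina HiSeq. The submitters' processing notes name mm10 as the build, and MACS2 2.1.1.20160309 and Bowtie 1.2.0 as tools. Peaks were called per sample. Whether an input was used, the calling options and the treatment of multiply mapped reads were not stated in the sources used here. The deposited lists give the pileup (coverage by extended reads at the summit), the −log10 p-value, the fold (a ratio over background), the −log10 q-value, the nearest gene and the class of each interval. The deposited list of germ-free replicate 2 has no summit and no pileup, and its values are shifted against its header by 1 column. They were assigned from their relations, and how the shift arose is not known here.

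Lines that repeat an interval for another summit were merged, keeping the highest fold: 2359 and 1099 lines (E. coli), 3547 and 18032 (conventional), and 4989 and 17094 (germ-free) gave the list lengths reported. Mitochondrial intervals, which carry no gene or class, stay in list lengths. A gene had a promoter interval where the same list held an interval of the authors' promoter class tied to that gene. Gene positions and sequences are RefSeq's of GRCm38.p6. Chromosome 18 has no start in the sequence table and was left out where starts were needed.

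Shares between groups were compared by exact permutation of libraries (15 splits for 3 groups, 3 for a pair), and intergenic with other intervals within libraries by exact sign-flip permutation over 6 libraries, adjusted by Benjamini-Hochberg for 4 tests at a threshold of 0.05. The steps were tested on simulated data. Python 3.11.15, NumPy 2.4.6, pandas 2.3.3, SciPy 1.17.1 and matplotlib 3.10.9 were used. Members, gene lists and the fold threshold were chosen with earlier results of these data known. Named regions are the 10 highest folds, up to 15 called in all 6 libraries below 20, up to 5 for each pattern of presence (both by mean rank of fold within the lists), the 10 genes with most regions, and up to 4 members of each gene list with a region in 2 or more libraries. Others are said to be named after their values were seen, and neighbours on chromosome 18 are counted but not named, and 1 further region is not reported here. Alternatives varied the q-value, list length, overlap, fold threshold, distance to RefSeq starts, libraries and summary.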

Additional observations from a re-analysis of the deposited data

How the results depend on the processing

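Intergenic intervals rest on few reads, fold has no local background, and a region that is not listed may still carry the mark, so list length limits every count of presence. Directions of the shares and differences held under all alternatives run, except that with every list held to its 870 most significant intervals sharing with another library turned to 7.23 percentage points. That setting also gave 270 regions, 119 in 2 or more libraries, 46 in all 6, and presence counts of 6 (E. coli, not germ-free), 0 (conventional, not germ-free), 0 (conventional, not E. coli), 2 (germ-free, not E. coli), 6 (germ-free, not conventional) and 15 (E. coli, not conventional). A −log10 q of 5 or more left 651 regions, 206 in 2 or more libraries, and 22 (germ-free, not E. coli), 10 (germ-free, not conventional) and 3 (E. coli, not conventional). Leaving out the high-fold regions left 27 in all 6 libraries and differences of -46.75 bp in length, -26.5 points in sharing and 6.12 points in promoter share. Left out of every class, an alternative chosen after seeing the data, they gave 27 regions, -42 bp, -26.2 points and 5.68 points. Each of these 6 differences had an adjusted p = 0.0417 by exact permutation, but the rule chose the regions by fold and 45 of the 47 are called everywhere, so their removal widens the gap in sharing by construction and these values support nothing. Keeping regions 5 kb or more from RefSeq starts left 4 (conventional, not germ-free), 24 (conventional, not E. coli) and 43 (germ-free, not E. coli). A fold of 30 or more held for 30 regions. The replicate block gave the groups 93.6% of the sum of squares of the intergenic share (exact permutation p = 0.167 over 36 arrangements within numbers), and nothing in the labels says that a number marks a shared day or litter. Without single libraries, regions ranged from 1837 to 2909, those in 2 or more libraries from 266 to 547, and presence counts from 0 to 202 (E. coli, not germ-free), 7 to 728 (conventional, not germ-free), 43 to 1055 (conventional, not E. coli), 67 to 1476 (germ-free, not E. coli), 26 to 1167 (germ-free, not conventional) and 7 to 227 (E. coli, not conventional). With conventional replicate 2 and germ-free replicate 2 both left out, an alternative chosen after seeing the data, there were 859 regions, 173 in 2 or more libraries, and counts in the same order of 9, 78, 85, 404, 423 and 16. The cause of these changes was not tested, beyond fewer intervals or libraries in the setting itself. Counting intervals of any class, also chosen after seeing the data, changed presence at 8 regions.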

Other observations

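Some loci carried runs of regions that were each called in a single library. At Neat1, a long non-coding RNA that forms nuclear paraspeckles, 16 regions at chr19:5824970-5840185 lay within the RefSeq gene, and the authors' models placed them past its end. They were called 0 and 0 times in E. coli, 0 and 0 times in conventional, and 0 and 16 times in germ-free libraries, with a highest fold of 6.97. Near Zfp36l2, which encodes a destabilizer of AU-rich mRNAs, 20 regions at chr17:84132069-84183630 were called 0 and 0 times in E. coli, 0 and 3 times in conventional, and 0 and 17 times in germ-free libraries, and 10 of them lay in the long non-coding RNA gene Gm19696. No region near either gene was called in 2 libraries. The highest fold near Zfp36l2 was 8.24. Germ-free replicate 2 has the longest list, and its part in these runs was not tested.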
